A study of Mus musculus with 10 samples.

Results

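Striolar or central type I hair cells (HCs) of old mice were described from single-cell RNA sequencing of the vestibular organs. The cells were selected on their measured UMIs of Ocm, which encodes oncomodulin, and of the other genes named here, and 198 cells met the criteria among 1442 Sox2-negative vestibular HCs and 10424 vestibular cells that passed quality control. A cell was kept with at least 200 genes, at least 1000 unique molecular identifiers (UMIs, each counting 1 captured transcript) and under 25% mitochondrial UMIs. It had a UMI in at least 3 of the 6 HC genes Myo6, Myo7a, Pou4f3, Tmc1, Kncn and Gfi1, at least 3 Ocm UMIs, no Sox2 UMI, and a UMI in fewer than 2 of the 5 supporting cell genes Otog, Otogl, Otol1, Slitrk6 and Agr3. These cells are called Ocm-high HCs below. They were compared with 1212 HCs that met each other criterion but held no Ocm UMI (Ocm-0 HCs), and with 108 HCs that held no Ocm UMI and at least 2 Sox2 UMIs (Sox2-positive HCs). As the groups were drawn on Ocm, Sox2 and the listed HC and supporting cell genes, the values of those genes describe the selection and are not a result.

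The mice were wild-type CBA/J animals of 22 months, an inbred strain that keeps its hearing until late in life. Cells of 7 to 8 mice were pooled for each library, and the study used males and females. Utricle, saccule and cristae went into the same library, so the organ and the position of a cell within it cannot be told apart. No library from young animals was used here, and no value below is a change with age. Replicates 1, 3, 4 and 5 were used. Replicate 2 shared 1633 barcodes with replicate 1, including all 17 Ocm-high HCs of either library, against at most 17 barcodes and no Ocm-high HC in any other pair of vestibular libraries, and it was held as a repeat of replicate 1. The 4 libraries held 4150642, 24104850, 10318267 and 9482901 UMIs, and their Ocm-high HCs held 98813, 442222, 161073 and 161573.

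Vestibular HCs are of type I, which are flask-shaped and enclosed by the calyx of an afferent nerve ending, or of type II, which are contacted by bouton endings and keep the transcription factor SOX2. The striola is a stripe of the otolith organs near which hair bundles reverse their orientation, and the central zone is its counterpart in the cristae. Both zones are known for type I HCs that hold oncomodulin, a small calcium-binding protein of the parvalbumin family, and for afferents that fire irregularly and encode fast head movements. Oncomodulin is also abundant in the outer hair cells (OHCs) of the cochlea.

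The 4 libraries gave 17, 96, 50 and 35 Ocm-high HCs, or 11.97%, 14.22%, 12.99% and 14.58% of their Sox2-negative HCs. The mean was 13.4% ± 1.19 (SD, n = 4 libraries), and the pooled share was 13.7% with an exact binomial 95% interval of 12% to 15.6%. The interval covers counting error only. The libraries did not differ in this share beyond their intervals, of which the widest, in replicate 1, reached from 7.13% to 18.5%. Of 309 cells with HC genes and at least 3 Ocm UMIs, 99 were left out for a Sox2 UMI and 69 for supporting cell genes, with 57 left out for both. Ocm-high and Ocm-0 HCs had like depth, with medians of 4178 and 4063 UMIs per cell, except in replicate 1, where the medians were 6360.0 and 3513. The median mitochondrial share was 7.59% in Ocm-high HCs and 4.72% in Ocm-0 HCs, and it was higher in Ocm-high HCs of each library, at 8.67%, 9.64%, 3.59% and 7.41% against 5.84%, 6.52%, 2.11% and 4.22%.

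The number of Ocm UMIs varied widely among the selected cells. The lowest was 3, the median 14 and the highest 116 UMIs per cell, with quartiles at 7.25 and 34.8. Just inside the threshold, 6 cells held 3 Ocm UMIs, 9 held 4 and 16 held 5, and just outside it 11 cells held 2 and 21 held 1. These counts are small beside the 1212 cells without an Ocm UMI, but less so beside the 198 selected cells. With at least 6 Ocm UMIs the selected share of Sox2-negative HCs was 11.6%, against 13.7%. Of 295 macrophage-like cells of the same libraries, which should lack Ocm, 2 (0.678%) held an Ocm UMI and none held 3.

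The name of the cells was checked against 6 markers, Ocm, Pvalb, Gbx2, Lce6a, Adam11 and Spp1, which had been chosen with earlier results of these data known and are given here without a test. Pvalb, Gbx2 and Spp1 are also counted among the calls of gene lists below, whose shares thus include genes chosen in this way. Levels are CPM, that is a gene's UMIs per 1000000 UMIs summed across the cells of the population, given for replicates 1, 3, 4 and 5 in this order. Ocm (chr5:144019804-144026670, minus strand, GRCm38) stood at 5495, 6180.2, 5016 and 4797 CPM in Ocm-high HCs and at 0 in the others by selection. Pvalb, which encodes parvalbumin, another calcium buffer of the same family, stood at 1083, 726, 795 and 916 CPM in Ocm-high HCs against 85.8, 102, 99.2 and 80.6 CPM in Ocm-0 HCs. Each Ocm-high value was above each Ocm-0 value, and the log2 fold change was 3.08 ± 0.11 (SE).

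Gbx2, a homeobox transcription factor, stood at 213, 104, 174 and 80.5 CPM in Ocm-high HCs and between 9.10 and 15.2 CPM in Ocm-0 HCs. Lce6a, a member of the late cornified envelope family, stood at 304, 222, 236 and 309 CPM against 18.2 to 23.6 CPM. Both were higher in Ocm-high HCs of each library, by log2 3.49 ± 0.27 and 3.48 ± 0.18. Adam11, which encodes a cell surface protein used to mark type I HCs, stood at 1518, 936, 975 and 829 CPM in Ocm-high HCs and at 1179.6, 760.5, 908 and 706 CPM in Ocm-0 HCs, and these groups overlapped. A UMI of Adam11 was found in 89.9% of Ocm-high HCs, in 86.7% of Ocm-0 HCs, in 11.1% of Sox2-positive HCs and in 4.75% of macrophage-like cells. Most cells on both sides of the first comparison thus held the type I marker, but Ocm-0 HCs without it may include type II HCs whose Sox2 gave no UMI, which cannot be told apart here.

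Spp1, which encodes osteopontin and also marks type I HCs, went the other way from Ocm. It stood at 20918, 23319, 17532 and 19471 CPM in Ocm-high HCs and at 41553, 41643, 34634 and 36174 CPM in Ocm-0 HCs. The groups did not overlap, and the level in Ocm-high HCs was lower by log2 0.98 ± 0.05. In Sox2-positive HCs it was lower still, between 3458 and 10656 CPM. Of the 5 markers besides Ocm, which chose the cells, Pvalb, Gbx2 and Lce6a were thus higher in Ocm-high than in Ocm-0 HCs of each library, Adam11 was at overlapping levels, and Spp1 was lower while still abundant.

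**Figure D1:**
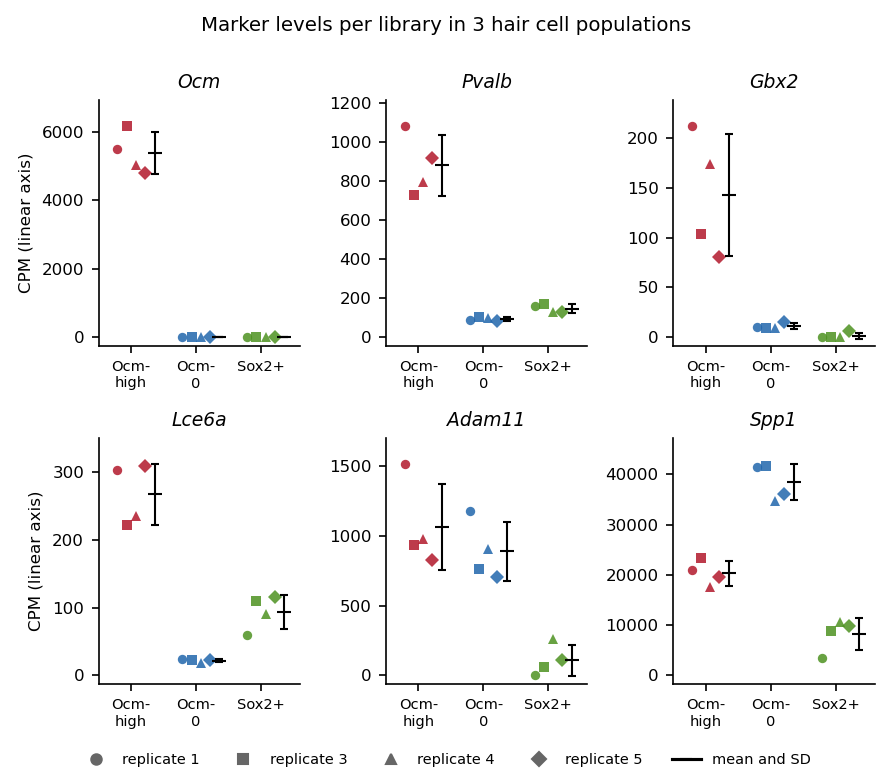
Levels of the 6 markers in CPM (linear axes) in Ocm-high, Ocm-0 and Sox2-positive HCs, with 1 point per library and the mean and SD of the 4 libraries in black. Pvalb, Gbx2 and Lce6a lie above the other populations in Ocm-high HCs, Adam11 separates both Sox2-negative populations from Sox2-positive HCs, and Spp1 is highest in Ocm-0 HCs; Ocm and Sox2 were used for the selection.

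UMIs of Pvalb, Lce6a and Gbx2 were found together in only some Ocm-high HCs, though a missing UMI does not show that a cell lacked the gene. A UMI of Pvalb was found in 82.8% of Ocm-high HCs, of Lce6a in 51.5% and of Gbx2 in 37.9%, against 19.3%, 7.10% and 3.55% of Ocm-0 HCs and 39.8%, 38.9% and 0.926% of Sox2-positive HCs. Of the 198 Ocm-high HCs, 38 (19.2%) held a UMI of all 3, 83 held 2, 61 held 1 and 16 (8.08%) held none. Of the 1212 Ocm-0 HCs, 10 (0.825%) held all 3 and 913 (75.3%) held none, and of the 108 Sox2-positive HCs, 1 held all 3 and 44 (40.7%) held none. When each cell was thinned to 1000 UMIs, Pvalb was found in 48.5% of Ocm-high, 9.24% of Ocm-0 and 13.9% of Sox2-positive HCs, and Lce6a in 16.2%, 3.05% and 12.96%. After this thinning 3 Ocm-high HCs held a UMI of all 3 genes and 75 (37.9%) held none, so these counts depend on depth. Among Ocm-0 HCs 0 held all 3 and 1064 (87.8%) held none. In macrophage-like cells, with a median depth of 2725 UMIs, Pvalb was found in 1.02% and Gbx2 and Lce6a in none. The shares in HCs were above that background, except that of Gbx2 in Sox2-positive HCs. That share rests on 1 cell and cannot be told apart from the background.

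Levels were also set out by the number of Ocm UMIs per cell, as a description. The median depth was 4063 UMIs in cells with no Ocm UMI, 4493.5 with 1 or 2, 3337 with 3 to 9, 3634 with 10 to 19, 4181 with 20 to 39 and 5475 with 40 or more. In the 67 cells with 3 to 9 Ocm UMIs, Pvalb was at 699 CPM, in the 43 cells with 40 or more at 1066 CPM, and in the 32 cells with 1 or 2 at 455 CPM. Cib3, described below, was at 200.4 CPM in cells with 3 to 9 Ocm UMIs, at 92.4 CPM with 20 to 39 and at 0 with 40 or more. The cells with 1 or 2 Ocm UMIs lay between both sides for each of the 8 genes plotted. They were in neither group of the comparisons.

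**Figure D2:**
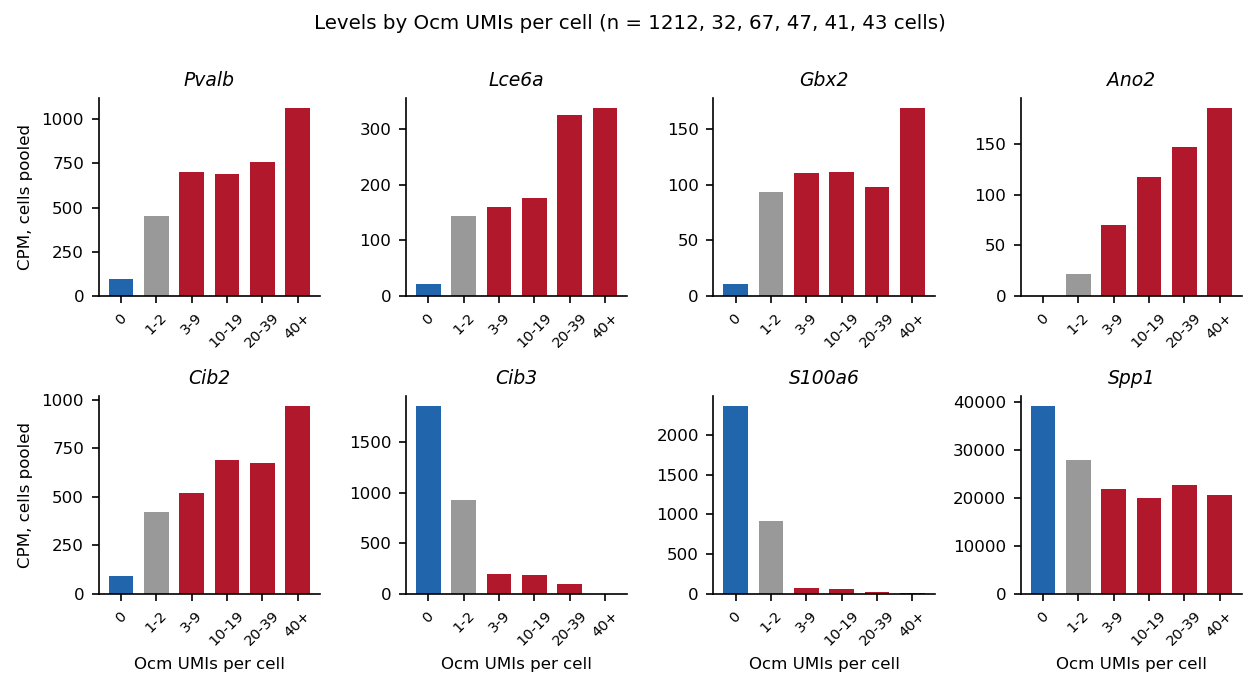
Pooled CPM (linear axes) of 8 genes in Sox2-negative HCs by the number of Ocm UMIs per cell, with Ocm-0 HCs in blue, cells with 1 or 2 Ocm UMIs in grey and Ocm-high HCs in red. The bars pool cells of the 4 libraries (1212, 32, 67, 47, 41 and 43 cells) and carry no replicate error; Cib3 falls from 1865 CPM in Ocm-0 HCs to 0 in cells with 40 or more Ocm UMIs, while Cib2 rises from 90.9 to 969 CPM.

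UMIs were summed per library and population, and Ocm-high HCs were compared with Ocm-0 HCs with the library as a block. Of 6531 genes tested, 514 (7.87%) were higher and 569 (8.71%) lower in Ocm-high HCs at an adjusted p under 0.05 (edgeR quasi-likelihood test, Benjamini-Hochberg). Without the library block the test called 307 and 301 genes. Without replicate 3, which held 96 of the 198 cells, it called 340 and 377. Of the calls, 356 of the higher and 350 of the lower genes had no overlap between the groups of 4 libraries, and 197 and 246 differed by more than 2-fold. The median log2 fold change of the genes tested was -0.01.

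**Figure D3:**
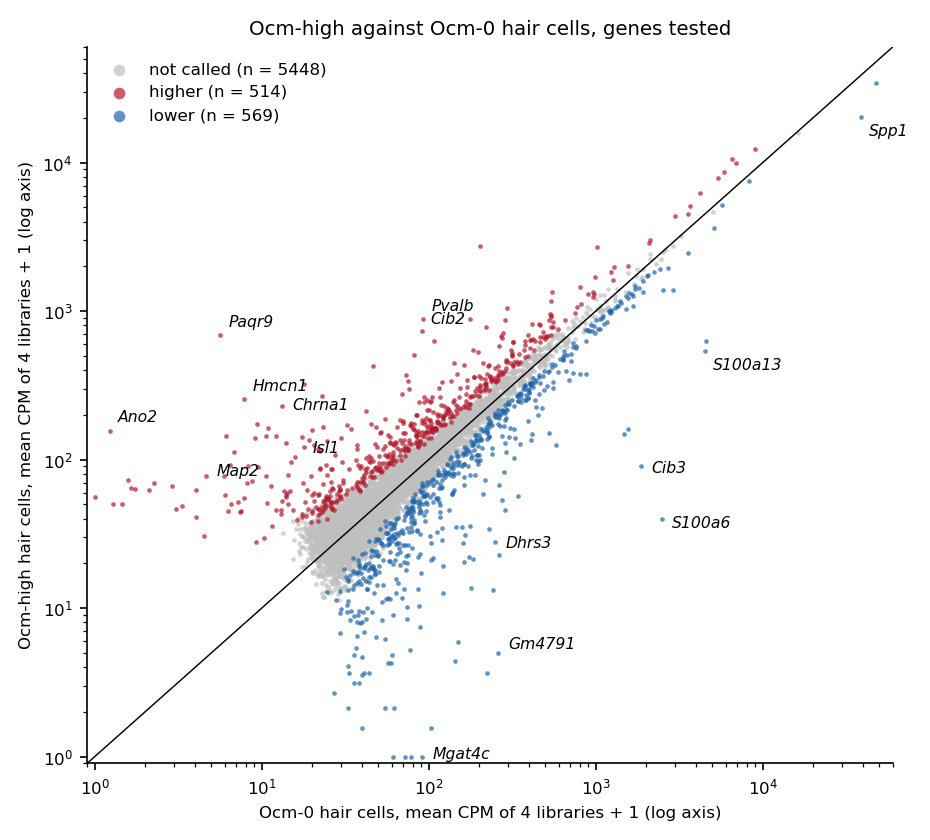
Mean CPM + 1 of 4 libraries in Ocm-high against Ocm-0 HCs for the 6531 genes tested (both axes log), with genes called higher in red (514), lower in blue (569) and not called in grey (5448). The line marks equal levels; Paqr9 and Ano2 lie far above it, and Cib3 and S100a6 far below it.

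The 12 genes with the largest fold in each direction were taken among called genes without overlap, with at least 20 CPM in the higher population and not over 4-fold higher in other cells. Paqr9, a membrane receptor of the progestin and adipoQ family, stood at 1052, 568, 584 and 532 CPM in Ocm-high HCs and at 2.14, 2.71, 13.7 and 0 CPM in Ocm-0 HCs. It was found in 74.7% of Ocm-high and 1.24% of Ocm-0 HCs, and its log2 fold change was 6.96 ± 0.22 (adjusted p = 5.55e-29), or 8.09 without replicate 4. Ano2, which encodes a calcium-activated chloride channel, stood at 213, 88.2, 137 and 186 CPM. It gave 112 UMIs in Ocm-high HCs and 1 UMI in the 1212 Ocm-0 HCs, a ratio of pooled CPM of 649 (counting interval 114 to 25857). The groups did not overlap for either gene, and Ano2 was found in 32.8% of Ocm-high HCs.

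Hmcn1, which encodes the extracellular matrix protein hemicentin, stood at 283, 149, 329 and 254 CPM in Ocm-high HCs against 2.14 to 12.8 CPM in Ocm-0 HCs (log2 fold change 4.85 ± 0.24, adjusted p = 2.58e-21). Ptgs2, which encodes the prostaglandin-forming enzyme cyclooxygenase, stood at 81.0, 40.7, 80.7 and 43.3 CPM against 0 to 2.34 CPM. Its neighbour Ptgs2os, which lies on the opposite strand without overlapping it, gave 40 UMIs in Ocm-high HCs and none in Ocm-0 HCs, or at least 77.3-fold more against a limit of 3 UMIs over the group. The other genes of this set were Nell2, a secreted protein with roles in axon guidance, Brinp1, Pcolce2, the sulfotransferase gene Chst2, the transcription factor gene Creb5, Lrrc30 and 1810046K07Rik, with 30.9 to 121 CPM in the libraries of Ocm-high HCs and no more than 5 UMIs in all Ocm-0 HCs except Lrrc30, with 9. Each was present at low counts, and the sizes of these folds are imprecise. The log2 fold change of Nell2 was 5.93 ± 0.53 (adjusted p = 1.94e-12), or 6.76 without replicate 3.

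Among the genes lower in Ocm-high HCs, 4 gave no UMI in the 198 cells. Mgat4c, a glycosyltransferase gene, stood at 103, 101, 64.6 and 92.2 CPM in Ocm-0 HCs and was at least 26.3-fold lower in Ocm-high HCs. Tgm5, a transglutaminase gene, Ly75, which encodes an endocytic receptor, and Dok6, which encodes an adaptor protein, were at least 21.5-fold, 20.1-fold and 17.1-fold lower. These bounds rest on a limit of 3 UMIs over the group. Cbln4, which encodes a secreted synaptic organiser, gave 1 UMI against 457, and Ncam1 and Efnb1, which encode cell surface adhesion and guidance proteins, gave 1 UMI each against 186 and 171. The uncharacterised genes Gm4791 and BC048679 gave 7 and 2 UMIs against 1272 and 306.

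S100a6, which encodes a calcium-binding protein of the S100 family, was lower in Ocm-high than in Ocm-0 HCs. It stood at 20.2, 40.7, 68.3 and 24.8 CPM in Ocm-high HCs and at 1802, 1851, 3634 and 2640.1 CPM in Ocm-0 HCs (log2 fold change -5.92 ± 0.15, adjusted p = 4.01e-32). The value stayed between -6.33 and -5.73 in each of the 19 alternatives. A UMI was found in 29.6% of Ocm-0 HCs and 10.6% of Ocm-high HCs, or 23.6% and 4.04% after thinning to 1000 UMIs. Macrophage-like cells held one in 27.8% (22.4% after thinning), so that neither share in HCs is read as a share of cells that express the gene.

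Calcium-binding protein genes were called in both directions. Counts of calls in this and the following gene lists stand beside 7.87% higher and 8.71% lower of all 6531 genes tested. Of 18 calcium buffer genes, a list without S100a6, 13 were tested besides Ocm, with 4 (30.8%) higher (Pvalb, Calb2, Cabp2 and Sri) and 5 (38.5%) lower, among them S100a1, S100b (a call lost in 3 of 19 alternatives), S100a13 and Calm2. Sri (sorcin) stood at 506, 602, 397 and 588 CPM against 341, 311, 285 and 319.9 CPM (log2 fold change 0.73 ± 0.10, adjusted p = 2.74e-07). S100a13 was lower, at 445, 800.5, 739 and 161 CPM against 3811, 4269, 6232 and 3610.4 CPM (log2 fold change -3.16 ± 0.14, adjusted p = 7.52e-23). S100a1 was lower by log2 1.23 ± 0.12 (adjusted p = 3.11e-11), although its 2216 CPM in replicate 4 of Ocm-high HCs overlapped the Ocm-0 range of 2140.3 to 4022 CPM. Calm2, a calmodulin gene, was called lower by log2 0.19 ± 0.06 (adjusted p = 0.0314), a call lost in 10 of 19 alternatives. Calb2 (calretinin), a type II marker, was called higher by log2 0.92 ± 0.27 (adjusted p = 0.0126) at 62.0 ± 20.2 against 36.5 ± 20.02 CPM, with overlapping groups, and it lost the call in 6 of 18 alternatives, among them without replicate 3 and without replicate 5. In 1 more, against Ocm-0 HCs of any Sox2 count, its direction turned (log2 -0.31, adjusted p = 0.422).

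Among 17 calcium pumps and exchangers, 9 were tested, and 1 (11.1%, near the 7.87% of all genes) was higher and 3 (33.3%, against 8.71%) were lower. Slc8a2, a sodium-calcium exchanger gene, stood at 263, 140.2, 137 and 142 CPM in Ocm-high HCs and at 105, 73.2, 64.6 and 63.1 CPM in Ocm-0 HCs (log2 fold change 1.03 ± 0.17, adjusted p = 4.78e-06). Atp2a2, the calcium pump of the endoplasmic reticulum, stood at 91.1, 140.2, 168 and 192 CPM against 463, 374, 410.4 and 405 CPM (log2 fold change -1.46 ± 0.13, adjusted p = 3.98e-12). Atp2b2, the main calcium pump of stereocilia, was lower by log2 0.45 ± 0.09 (adjusted p = 0.000188) with groups that overlapped at 1386 and 1416 CPM, and was not called without the library block (adjusted p = 0.108). Atp2b1, a plasma membrane calcium pump gene, was also called lower (log2 -0.71), and its value moved between alternatives. It was -1.52 with both sides limited to cells with an Adam11 UMI, an alternative chosen after seeing the data, and the call was lost without replicate 5 (log2 -0.51, adjusted p = 0.0613) and in cells with no haemoglobin UMI (log2 -0.54, adjusted p = 0.239).

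Among mechanotransduction genes, Cib2 was higher and the related Cib3 lower in Ocm-high HCs. CIB2 and CIB3 are calcium- and integrin-binding proteins that associate with the TMC proteins of the mechanotransduction channel at stereocilia tips. Cib2 (chr9:54544794-54560218, minus strand) stood at 749, 683, 788 and 724 CPM in Ocm-high HCs and at 57.9, 82.9, 100.1 and 121 CPM in Ocm-0 HCs (log2 fold change 2.94 ± 0.12, adjusted p = 7.42e-25). Cib3 (chr8:72204335-72212837, minus strand) stood at 60.7, 165, 80.7 and 49.5 CPM against 1887, 1822, 2112 and 1666 CPM (log2 fold change -4.20 ± 0.16, adjusted p = 5.53e-26, and -4.96 without replicate 3). Neither gene showed any overlap between the groups.

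A UMI of Cib2 was found in 87.4% of Ocm-high and 21.9% of Ocm-0 HCs, and of Cib3 in 21.7% and 92.2%. After thinning to 1000 UMIs these shares were 52.0% and 7.76% for Cib2, and 9.60% and 77.1% for Cib3. Macrophage-like cells held a UMI of Cib2 in 14.6% and of Cib3 in 3.05%. With Ocm-high and Ocm-0 HCs both limited to cells with an Adam11 UMI, an alternative chosen after seeing the data, the log2 fold changes of Cib2 and Cib3 were 3.04 and -4.28. Against Ocm-0 HCs of any Sox2 count they were 2.18 and -4.14.

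Of 14 transduction and tip link genes, 10 were tested besides Tmc1, with 2 (20%) higher and 3 (30%) lower. Lhfpl5, which encodes a subunit of the channel complex that binds the tip link, was higher, at 627, 805, 708 and 569 CPM against 253, 270.3, 282 and 271 CPM (log2 fold change 1.31 ± 0.10, adjusted p = 1.93e-14). Tmc2, which encodes a pore-forming protein of the channel, was lower at 20.2, 18.1, 37.2 and 0 CPM against 36.5, 59.2, 82.8 and 61.9 CPM (log2 fold change -1.77 ± 0.33, adjusted p = 5.62e-05), with a slight overlap. Ush1c (harmonin) was called lower by log2 0.45 ± 0.13 (adjusted p = 0.0122), with overlap, and lost the call in 7 of 19 alternatives. Pcdh15, Cdh23, Tmie and Tomt, at log2 0.54, 0.33, 0.27 and 0.16, did not pass the test.

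**Figure D4:**
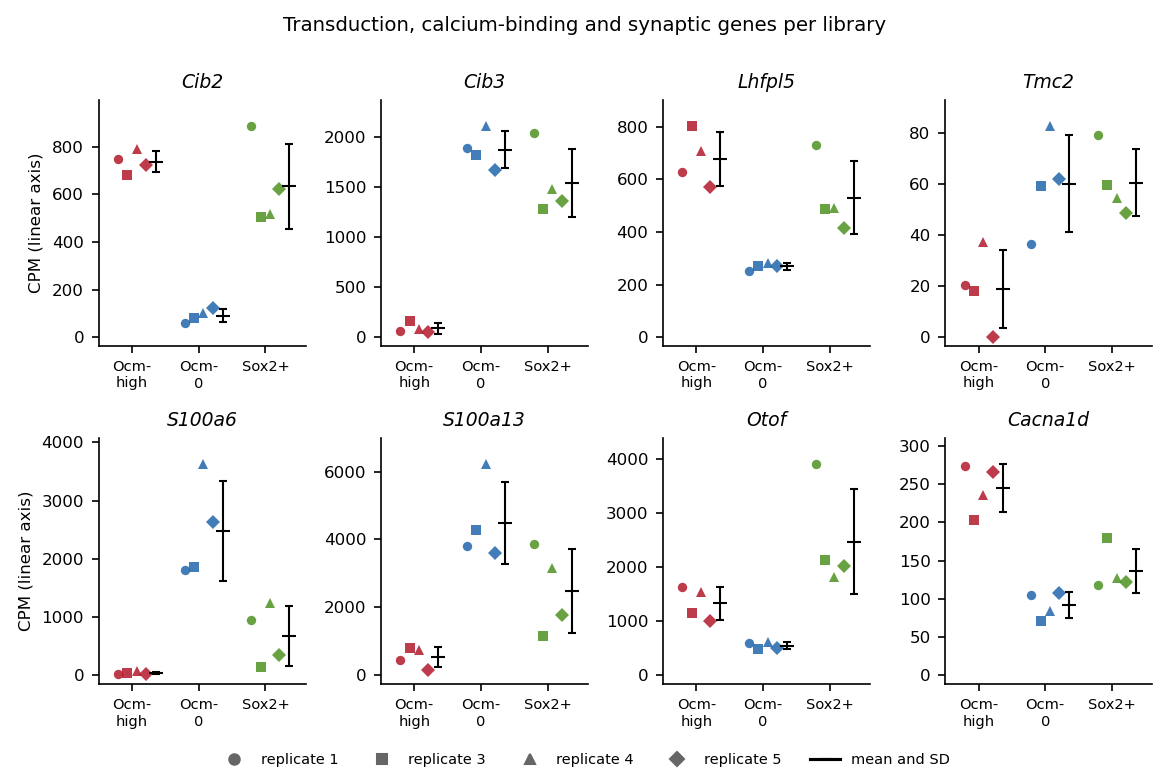
CPM (linear axes) of 8 genes in Ocm-high, Ocm-0 and Sox2-positive HCs, with 1 point per library and the mean and SD of the 4 libraries in black. Cib2 is high in Ocm-high and Sox2-positive HCs and low in Ocm-0 HCs, Cib3 is low in Ocm-high HCs and high in both others, and S100a6 and S100a13 are lowest in Ocm-high HCs.

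Genes of the stereocilia were called in both directions. Of 51 listed, 41 were tested beside the genes of the selection, and 9 (22%) were higher and 10 (24.4%) lower, with a median log2 fold change of 0.01. Grxcr2, which encodes a protein of the stereocilia base, stood at 546, 495, 397 and 340.4 CPM in Ocm-high HCs and at 167, 137, 147 and 112 CPM in Ocm-0 HCs (log2 fold change 1.64 ± 0.11, adjusted p = 6.59e-16). Tpm1 (tropomyosin), an actin-binding protein, stood at 536, 491, 602 and 477 CPM against 176, 159, 224 and 227 CPM (log2 fold change 1.40 ± 0.11, adjusted p = 2.84e-14). Neither overlapped between groups. Slc9a3r2, a PDZ scaffold gene, was lower, at 30.4, 97.2, 86.9 and 49.5 CPM against 307, 241, 266 and 234 CPM (log2 fold change -1.75 ± 0.18, adjusted p = 5.14e-11). Espn (espin), a major actin bundler, was at 2499.9 ± 242 and 2533 ± 419 CPM and was not called.

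Genes of the kinocilium, the true cilium of the hair bundle, were called lower more often than all genes tested. Of 83 listed genes 65 were tested, and 17 (26.2%, against 8.71% of all genes) were lower and 1 higher, with a median log2 fold change of -0.20 against -0.01 for all genes. Tekt2 (tektin), a filament of ciliary microtubules, stood at 20.2, 38.4, 12.4 and 6.19 CPM in Ocm-high HCs and at 182, 167, 172 and 127 CPM in Ocm-0 HCs (log2 fold change -2.73 ± 0.25, adjusted p = 3.85e-12, and -3.78 without replicate 3). Dnah10, an axonemal dynein heavy chain gene, gave 2 UMIs against 169, a ratio of 14.6 (counting interval 3.98 to 121). Rsph1, a radial spoke gene at 515 ± 86.2 and 419 ± 38.7 CPM, was not called, and the one called higher, Cfap52, lost its call in 7 of 19 alternatives, among them without replicate 3.

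Ion channel genes were few among the tested genes. Of 36 potassium and HCN channel genes 8 were tested, with 2 (25%) higher and 2 lower. Kcnj16, an inwardly rectifying potassium channel gene, stood at 182, 109, 130.4 and 118 CPM in Ocm-high HCs and at 17.2, 35.6, 9.10 and 10.5 CPM in Ocm-0 HCs (log2 fold change 2.45 ± 0.27, adjusted p = 4.01e-10, and 3.48 without replicate 3). Kcnh8 was lower by log2 2.33 ± 0.41 (adjusted p = 2.19e-05) on 8 UMIs against 228. Kcna10, a HC potassium channel gene, was at 1083 ± 248 and 1059 ± 197 CPM and was not called.

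At the synapse, Cacna1d, which encodes the calcium channel of HC ribbon synapses, stood at 273, 204, 236 and 266 CPM in Ocm-high HCs and at 105, 71.6, 84.6 and 107 CPM in Ocm-0 HCs (log2 fold change 1.38 ± 0.14, adjusted p = 9.92e-11). Cacna2d4, a gene for an auxiliary subunit of such channels, went the other way, at 435, 366, 366 and 328 CPM against 1059.5, 704, 793 and 641 CPM (log2 fold change -1.10 ± 0.10, adjusted p = 7.68e-12). Otof, which encodes the calcium sensor of HC exocytosis otoferlin, stood at 1639.5, 1144, 1546 and 1009 CPM against 594, 484, 607 and 503 CPM (log2 fold change 1.21 ± 0.09, adjusted p = 2.29e-14). None of these groups overlapped. Of 41 ribbon synapse and release genes 26 were tested, with 3 higher (Otof, Snap91 and Cabp2) and 3 lower (Syt2, Sv2b and Dnm1), shares of 11.5% each and close to the background. Syt2, a vesicle calcium sensor gene, was lower by log2 2.42 ± 0.31 (adjusted p = 2.66e-08), or 3.15 without replicate 3. Cabp2 lost its call in 10 of 19 alternatives and Dnm1 in 4 of 19.

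Efferent nerve fibres act on HCs through nicotinic receptors of the subunits Chrna9 and Chrna10. Chrna10 was at 496 ± 105 and 450.3 ± 121 CPM and was not called, and Chrna9 was called lower by log2 0.38 ± 0.12 (adjusted p = 0.0217), with overlap, a call lost in 8 of 19 alternatives. Chrna1, which encodes the receptor subunit best known from muscle, stood at 283, 188, 186 and 254 CPM in Ocm-high HCs and at 6.43, 15.9, 14.6 and 11.7 CPM in Ocm-0 HCs (log2 fold change 3.86 ± 0.21, adjusted p = 1.10e-19). It was found in 99 of 198 Ocm-high HCs and in 4.87% of Ocm-0 HCs.

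Of 74 transcription factors listed for HCs, 36 were tested besides Pou4f3 and Gfi1, and 7 (19.4%, against 7.87% of all genes) were higher and 12 (33.3%, against 8.71%) lower. Isl1, a LIM-homeodomain factor, stood at 162, 149, 106 and 149 CPM in Ocm-high HCs and at 21.4, 10.5, 21.8 and 11.7 CPM in Ocm-0 HCs (log2 fold change 3.22 ± 0.25, adjusted p = 2.17e-14, and 2.53 against Ocm-0 HCs of any Sox2 count). Among the others called higher were Gbx2, Creb5, Lmo4, Tbx2 and Rora, with log2 fold changes of 1.42 to 5.54. Id3 and Id2, inhibitors of basic helix-loop-helix factors, were lower, at 6.49 ± 5.55 against 87.9 ± 13.6 CPM for Id3 (log2 fold change -3.31 ± 0.36, adjusted p = 2.85e-10, and -4.22 without replicate 3) and 12.5 ± 5.81 against 69.7 ± 22.2 CPM for Id2 (log2 fold change -2.57 ± 0.34, adjusted p = 7.98e-08). Meis2, Sox4, Nfib and Lhx3 were among the lower genes.

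Retinoic acid, a vitamin A derivative, patterns the zones of the vestibular epithelia during development, where the degrading enzyme CYP26B1 of the striola keeps its level low. Of 19 retinoid genes 11 were tested, and 4 (36.4%, against 8.71% of all genes) were lower and none higher, against 7.87%. Cyp26b1 itself gave 2 UMIs in Ocm-high HCs and 246 in Ocm-0 HCs, a ratio of 21.2 (counting interval 5.81 to 176). Dhrs3, which encodes a retinaldehyde reductase, stood at 50.6, 31.7, 6.21 and 18.6 CPM against 416, 207, 198 and 174 CPM (log2 fold change -3.11 ± 0.22, adjusted p = 1.93e-15). Stra6, the retinol transporter gene, was lower by log2 1.78 ± 0.39 (adjusted p = 0.000559), or 2.97 without replicate 3, and Aldh1a3, a retinoic acid synthesis gene, by 0.56 ± 0.15 (adjusted p = 0.00485). The receptor genes Rara, Rarb, Rxra and Rxrb did not pass the test. Cyp26b1 is also 1 of 12 genes listed for supporting cells, whose summed level was 30.4, 140.2, 199 and 24.8 CPM in Ocm-high HCs, 144, 289, 197 and 143 CPM in Ocm-0 HCs and 1381 CPM in all other cells. Prox1 was the most abundant of them in Ocm-high HCs, and Epyc, Tecta, Lfng, Hes5 and Otop1 were at 0. The part of supporting cell RNA in the result for Cyp26b1 was not tested.

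Type I HCs face the calyx across a narrow cleft. Of 39 genes listed for neurotrophic or calyx-facing roles 11 were tested, with 4 (36.4%) higher and 5 (45.5%) lower, the marker Spp1 among the latter. Tnr and Tnc, which encode tenascins of the extracellular matrix, were both higher, Tnr at 91.1, 63.3, 68.3 and 192 CPM against 19.3, 13.6, 6.37 and 19.9 CPM (log2 fold change 2.65 ± 0.27, adjusted p = 7.07e-11) and Tnc by log2 0.94 ± 0.16 (adjusted p = 6.57e-06). Sema3a, a secreted axon guidance cue, stood at 192, 226, 168 and 173 CPM against 90.1, 92.9, 89.2 and 109 CPM (log2 fold change 1.02 ± 0.15, adjusted p = 9.66e-07). Nrxn2, a synaptic adhesion gene, and Slc4a4, a bicarbonate transporter gene, were lower by log2 1.87 ± 0.31 (adjusted p = 7.22e-06) and 1.50 ± 0.17 (adjusted p = 1.60e-09).

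Of 30 cytoskeletal and neurodegeneration-related genes 19 were tested, with 3 (15.8%) higher and 8 (42.1%) lower. Map2, which encodes a dendritic microtubule-associated protein, stood at 70.8, 74.6, 80.7 and 80.5 CPM in Ocm-high HCs and at 4.29, 4.65, 0.910 and 4.67 CPM in Ocm-0 HCs (log2 fold change 4.23 ± 0.37, adjusted p = 7.82e-13, and 2.52 against Ocm-0 HCs of any Sox2 count). The amyloid precursor gene App was higher by log2 0.48 ± 0.09 (adjusted p = 5.11e-05, or 0.0753 without the library block) without overlap, and Nefm, a neurofilament gene, by 0.76 ± 0.09 (adjusted p = 1.17e-08) with overlap. App also lost the call with each cell thinned to 1000 UMIs (log2 0.237, adjusted p = 0.296). The tau gene Mapt was lower, at 24.5 ± 18.0 against 78.3 ± 19.7 CPM (log2 fold change -1.29 ± 0.31, adjusted p = 0.00150, and -2.37 without replicate 3). Among 23 tested antioxidant genes, 5 (21.7%) were higher and 3 (13%) lower. The metallothioneins Mt1 and Mt2, closely related metal-binding proteins, were higher by log2 0.81 ± 0.09 and 1.14 ± 0.16 (adjusted p = 2.41e-09 and 3.58e-07), without overlap.

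Of 13 genes of the mitochondrial genome 12 (92.3%) were higher, with a median log2 fold change of 0.49. These genes entered the selection through the limit of under 25% mitochondrial UMIs, which was the same for all groups. They were kept in the tests and counts, so their levels are those of cells under that limit. Of 79 cytosolic ribosomal protein genes tested, 40 (50.6%, against 8.71% of all genes) were lower, 38 were not called and 1 was higher, with a median of -0.29. Among 86 nuclear genes of the respiratory chain 11 (12.8%) were higher and 1 lower, with a median of 0.15. mt-Co1 stood at 10879, 14685, 5140.5 and 11332 CPM in Ocm-high HCs and at 7144, 9651, 3198 and 6325 CPM in Ocm-0 HCs (log2 fold change 0.63 ± 0.06, adjusted p = 7.71e-11). The libraries differed more among themselves than the populations did, so that the groups overlapped, but Ocm-high HCs were higher in each library. Without the library block mt-Co1 was not called (adjusted p = 0.256). The fold was 0.63 with cells under 10% mitochondrial UMIs, and the mitochondrial share of the cells, given above, moved with it. With that limit on the cells, 377 genes were higher and 409 lower among 5487 tested. The part of the mitochondrial share in the other results was not tested. Of 15 glycolysis and lactate genes 1 was higher and 1 lower, and of 34 proteasome genes 2 were higher. Psmd8, 1 of these 2, lost its call in 11 of 18 alternatives.

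**Figure D5:**
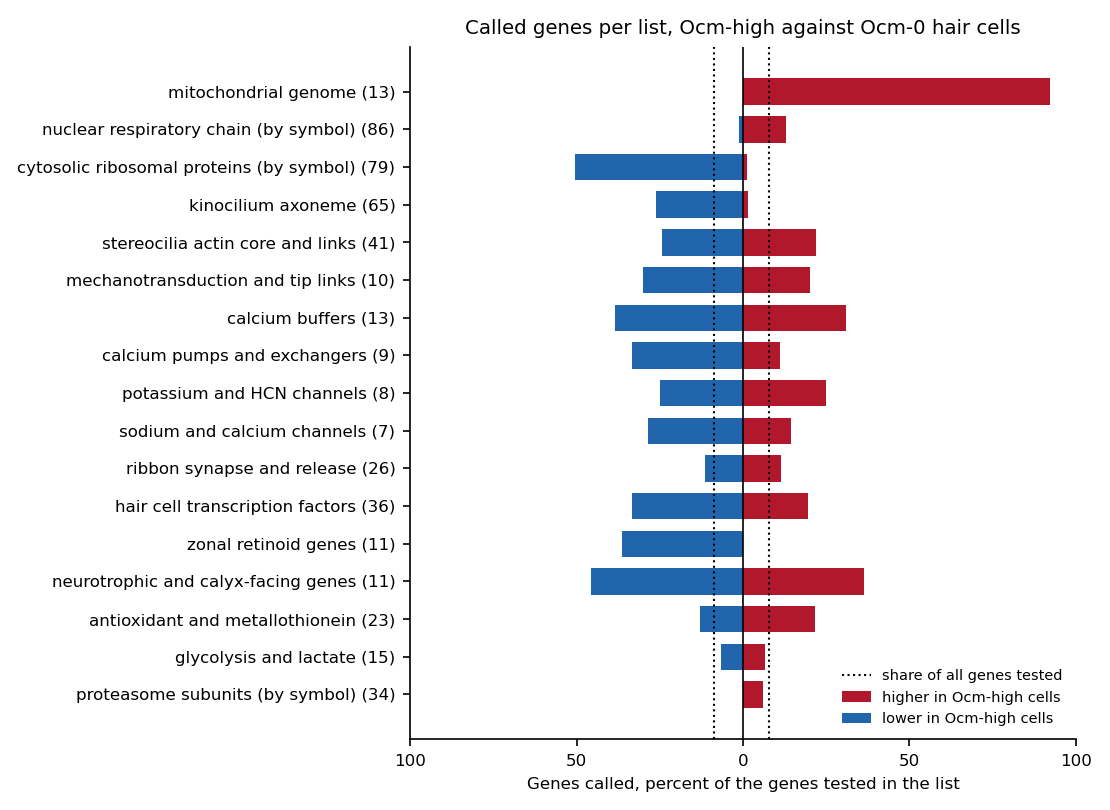
Share of the tested genes of each list shown that were called higher (red, right) or lower (blue, left) in Ocm-high than in Ocm-0 HCs, in percent of the number tested, given in brackets. Dotted lines mark the shares among all 6531 genes tested (7.87% higher and 8.71% lower). The mitochondrial genome, whose UMIs also set a limit on the cells, reaches 92.3% higher and the ribosomal proteins 50.6% lower.

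Marker lists of other cell types were summed in Ocm-high and Ocm-0 HCs. The summed level of 8 macrophage genes was 10.1, 4.52, 12.4 and 24.8 CPM, with C1qc, Csf1r and Fcer1g at 0 and C1qb the most abundant, against 4.29, 31.8, 114 and 38.5 CPM in Ocm-0 HCs and 1171 CPM in all other cells. The sums of 6 glial genes were 30.4, 43.0, 62.1 and 24.8 CPM against 83.7, 77.4, 77.4 and 38.5 CPM. For 8 fibrocyte genes they were 121, 1635, 1012 and 545 CPM against 388, 2321, 1289 and 447 CPM, with Apod the most abundant and Col3a1 at 0, and the tested Coch, Apod and Otos were each called lower, by log2 0.37, 0.38 and 0.81. Coch and Apod lost the call in 8 and 11 of 19 alternatives and Otos in 3 of 18, among them without replicate 3 (log2 -0.32). The part of such RNA in the other results was not tested. Haemoglobin genes were the least even, with sums of 81.0, 2641, 224 and 248 CPM against 116, 1933, 4327 and 19850 CPM. Hbb-bs was called lower by log2 2.78 ± 0.54 (adjusted p = 8.76e-05) with overlap, or by 0.92 without replicate 5 and 5.44 without replicate 3. It lost the call in 3 of 18 alternatives, which were no library block (adjusted p = 0.064), DESeq2 (adjusted p = 0.185) and leaving out cells with markers of other types (log2 -0.42, adjusted p = 0.347). The sums for 5 granulocyte genes were 0, 36.2, 12.4 and 37.1 CPM against 4.29, 332, 849 and 2529 CPM, and those for 6 melanocyte, 5 endothelial and 6 lymphocyte genes were at most 61.9 CPM in Ocm-high and 63.9 CPM in Ocm-0 HCs. The sums of 8 neuron genes were higher in Ocm-high HCs, at 2490.0, 1592, 2576 and 1919 CPM against 1606, 1256, 1628 and 1184 CPM, and 66.7 CPM in all other cells. Most of this was Nefm, at 1448 CPM and called higher, while Tubb3, Nefh, Prph, Gap43 and Thy1 were at 0 in Ocm-high HCs.

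These cell types were also left out as cells. A UMI in 2 or more genes of any 1 such list was found in 103 of 198 Ocm-high HCs, and without such cells on both sides 311 genes were higher and 323 lower among 4483 tested. Limiting both sides to cells with no haemoglobin UMI, chosen after seeing the data, gave 233 and 228 among 3645. The log2 fold changes of Cib2, Cib3 and S100a6 were 2.86, -4.36 and -6.33 without cells holding markers of other types.

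The difference from Sox2-positive HCs was tested in the same way. Of 3151 genes tested, 360 (11.4%) were higher and 396 (12.6%) lower in Ocm-high HCs (edgeR quasi-likelihood test, Benjamini-Hochberg), against 233 and 242 without replicate 3 and 237 higher without replicate 5. This comparison shares the Ocm-high cells with the first, and its calls are given for their own values. Sox2-positive HCs held Calb2 at 514, 375, 209 and 371 CPM, Mapt at 375, 129, 164 and 189 CPM and Anxa4 at 105 ± 30.4 CPM, and each of these 3 type II markers was lower in Ocm-high HCs, by log2 2.53 ± 0.23, 2.59 ± 0.33 and 1.73 ± 0.35 (adjusted p = 2.62e-13, 6.15e-09 and 8.41e-05).

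Cib2 stood at 889, 504, 519 and 620.5 CPM in Sox2-positive HCs, a level that overlapped that of Ocm-high HCs and was not called (log2 fold change 0.26 ± 0.16, adjusted p = 0.259). Cib3 stood at 2035, 1281, 1476 and 1363 CPM and was lower in Ocm-high HCs by log2 3.86 ± 0.21 (adjusted p = 1.90e-21). Otof was lower in Ocm-high HCs by log2 0.88 ± 0.16 (adjusted p = 9.71e-06), at 1812 to 3912 CPM in Sox2-positive HCs. The level of Otof in Ocm-high HCs was thus below that of Sox2-positive and above that of Ocm-0 HCs. Isl1 and Map2 were at 86.5 ± 55.2 and 60.8 ± 26.7 CPM in Sox2-positive HCs and were not called (log2 fold changes 0.58 and 0.45). Adam11 stood at 0 to 264 CPM in Sox2-positive HCs and was higher in Ocm-high HCs by log2 3.17 ± 0.25 (a description), or 3.80 without replicate 4.

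Genes with the largest folds over Sox2-positive HCs were Ano2 and Tslp, the latter a gene for an epithelial cytokine, which gave 112 and 113 UMIs in Ocm-high HCs and none in Sox2-positive HCs, or at least 27.1-fold and 27.3-fold more against a limit of 3 UMIs. Kcnj16, Arhgap10 and Gbx2 gave 1 UMI and Hmcn1 gave 2 UMIs in Sox2-positive HCs against 106, 87, 108 and 188 in Ocm-high HCs. In the other direction 1810008I18Rik gave no UMI in Ocm-high HCs and 65 in Sox2-positive HCs, at least 29.9-fold more. Tox, a nuclear factor gene, gave 1 UMI against 105, Rasd2, a small GTPase gene, 3 against 170, and Chst5, a sulfotransferase gene, 2 against 76. Tctex1d1, a dynein light chain gene, stood at 10.1, 6.78, 6.21 and 0 CPM against 533, 358, 328 and 383 CPM (log2 fold change -5.91 ± 0.36, adjusted p = 1.04e-19). Its log2 fold change lay between -6.15 and -4.46 in the 15 alternatives. Gm4791, whose 7 UMIs in Ocm-high HCs all came from replicate 3, gave 281 UMIs in Sox2-positive HCs. Tox and Rasd2 were too low to test in the first comparison.

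As Ocm is also a gene of OHCs, cochlear cells that met the same criteria in the same replicates were set beside the vestibular ones, without a test. There were 19, 39, 8 and 16 of them. Slc26a5 (prestin), the motor protein gene of OHCs, stood at 1305, 727, 1416 and 1820.0 CPM in the cochlear cells and at 0, 2.26, 0 and 0 CPM in the vestibular Ocm-high HCs. Lmod3 was at 268 ± 167 CPM in the cochlear cells and at 0 in the vestibular ones, and Ikzf2 and Strip2 were at 344 ± 180 and 754 ± 424 CPM against 33.0 ± 20.8 and 22.3 ± 16.2 CPM. Lbh, the fifth gene listed for OHCs, was present in both, at 1179 ± 1240.0 CPM in the cochlear and 549 ± 82.5 CPM in the vestibular cells, where it was found in 70.7% of cells. In the vestibule it stood at 308 ± 38.3 CPM in Ocm-0 HCs and 19.8 ± 29.7 CPM in Sox2-positive HCs, and was called higher in Ocm-high HCs than in either, by log2 0.73 ± 0.10 and 4.89 ± 0.33 (adjusted p = 3.49e-07 and 7.30e-18). Ocm was higher in the cochlear cells, at 25770.0 ± 7922 against 5372 ± 613 CPM. Adam11, Ano2 and Cib3 were at 0 in the cochlear cells, and Gbx2, Lce6a and Spp1 were at 3.86 ± 7.71, 6.83 ± 13.7 and 142.9 ± 265.9 CPM. Pvalb was uneven, at 0, 885.6, 0 and 370.1 CPM in the cochlear cells against 1083, 725.9, 794.7 and 916 CPM in the vestibular ones. Cib2 was present in both, at 2669 ± 531 CPM in the cochlear and 736 ± 44.3 CPM in the vestibular cells. Isl1 stood at 400.6 ± 169 and 141 ± 24.6 CPM, and Pcp4, named after its values were seen, at 20920.0 ± 2775 and 2727 ± 931 CPM. Of the 5 OHC genes, Slc26a5 and Lmod3 gave 1 UMI and no UMI in the vestibular Ocm-high HCs. Ikzf2 and Strip2 were low there, found in 12.6% and 6.06% of cells, against 5.20% and 3.63% of Ocm-0 HCs. Lbh, like Ocm, Cib2, Isl1 and Pcp4, was present in the cells of both organs. A UMI in 2 or more of the 5 OHC genes was found in 29 of the 198 vestibular Ocm-high HCs.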

How the data were processed

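Raw UMI count values per gene and barcode, as deposited by the authors, were used for 22-month vestibular and cochlear libraries made with the Chromium 3' v3.1 kit; per the methods these are the filtered matrices, and no normalization was applied. Per the labels, reads were counted with Cell Ranger 6.1.2 on mm10, while the file headers name 5.0.1 for replicates 1 and 2 and 6.1.2 for replicates 3 to 5. The comparisons are made within libraries, which holds the version equal on both sides.

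The cells, markers, gene lists and tests were chosen with earlier results of these data known, and the 2 comparisons use cells selected on measured values. Replicate 2 repeats replicate 1 and was used only in its place as an alternative. No doublet caller was run, and cells with markers of other types were left out as an alternative. Macrophage-like cells, with a UMI in at least 4 of 8 macrophage genes and fewer than 2 HC genes, gave the background of stray UMIs.

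UMIs were summed per library and population and tested in edgeR 4.0.16 (R 4.3.3) with TMM factors, filterByExpr, the quasi-likelihood test, the library as a block and Benjamini-Hochberg adjustment at 0.05. Both sums of a library come from 1 pool of mice, and their deviations from the population means correlated at 0.213 to 0.245 in the first comparison and 0.140 to 0.171 in the second. Genes used for selection were left out of counts, except those of the mitochondrial genome, which entered only through the limit of under 25%. On simulated counts with changes of 1 or 2 on the log2 scale, the first comparison recovered 84.2% and 97.8% of the changed genes among 6246. Of its calls 6.04% were false. The second comparison recovered 90.6% and 100% among 2949, with 4.17% false. The simulated libraries differed in depth only, and fewer genes were changed than were called in the data. These rates therefore need not hold for the reported calls. Levels are CPM with the mean ± SD of 4 libraries, which covers the spread between pools of mice and not between single mice. Folds are log2 with their SE. Where a group gave no UMI, a bound was set from 3 UMIs over the group. For some genes with 1 to 3 UMIs the ratio of pooled CPM was given with its exact counting interval at 95%. For the others with 1 to 3 UMIs, UMI counts or log2 fold changes were given. Depth limits low genes: 1 UMI in the Ocm-high HCs of the 4 libraries is worth 10.1, 2.26, 6.21 and 6.19 CPM.

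Named genes were the markers, the 12 genes with the largest fold in each direction in the first comparison and 6 in the second (called, without overlap between libraries, at least 20 CPM in the higher population and not over 4-fold higher in other cells), and up to 3 called genes in each direction and the most abundant gene of each list. Genes named outside this rule (Sox4, Nfib, Lhx3, Meis2, Lmo4, Tbx2, Rora, Tnc, Aldh1a3, Anxa4, the transduction and retinoid receptor genes not called) were named as further members of their lists after their values were seen. Some genes that the rule selects are not reported here. Gene positions were taken from the GENCODE M21 annotation (GRCm38). Alternatives were DESeq2 1.42.0, other scaling factors, no filter on low counts, other thresholds, limits on cells, thinning of each cell to 1000 UMIs (seed 1), and leaving out each library. Seurat, named in the labels, was not used here.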

Additional observations from a re-analysis of the deposited data

Results flagged for a closer look

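In Ocm-high HCs, 16 of 140 gene levels tested had 1 library far from the other 3 (its gap to the nearest over the whole range above Dixon's critical value at 95%). For normally distributed values chance gives about 1 in 20. In 9 of the 16 the value rests on 1 to 7 UMIs in 1 library while the other 3 were at 0. Their gap then equals the range by construction, and that rate does not apply to them. With these set aside, the share flagged lay close to the rate that chance gives, so the flags below are given as a description. Replicate 3 gave 2.26 CPM for Cbln4, Ncam1 and Tox, 4.52 CPM for BC048679, Cyp26b1 and Chst5, 6.78 CPM for Cacna2d1 and 15.8 CPM for Gm4791, and replicate 1 gave 10.1 CPM for Efnb1. Replicate 3 holds the most cells and can show the lowest levels.

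Haemoglobin stood apart in replicate 3, with Hbb-bs at 2117 CPM against 40.5 to 186 CPM and Hba-a1 at 497.5 CPM against 30.4 to 55.9 CPM in the other libraries of Ocm-high HCs. Replicate 1, with 17 cells, was high for Paqr9, at 1052 CPM against 532 to 584, for Slc8a2, at 263 CPM against 137 to 142, and for Jun, at 60.7 CPM against 43.0 to 43.5. Hsp90aa1 was low in replicate 5, at 1950.0 CPM against 2783 to 2831, and Psmd8 was high in replicate 4, at 149 CPM against 101 to 106.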

How the results depend on the processing

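Over 20 settings, 2629 values of named genes were compared with those reported, and 2413 kept their direction and their side of the threshold, 211 lost a call, 4 gained one and 1 reversed. The reversed value was Calb2, at -0.31 (log2, adjusted p = 0.422) when Ocm-0 HCs of any Sox2 count were the comparison. Among genes that kept their call in every alternative tried, log2 fold changes over Ocm-0 HCs still ranged from 5.73 to 8.09 for Paqr9, 3.96 to 5.30 for Hmcn1, 2.62 to 3.61 for Lce6a, 2.20 to 3.94 for Kcnj16, 0.67 to 1.30 for Otof, -3.20 to -2.12 for Kcnh8, -3.79 to -2.54 for Tekt2, -3.74 to -2.91 for Dhrs3 and -4.95 to -2.73 for Id3. For Ocm-high against Ocm-0 HCs, with 514 higher and 569 lower genes, DESeq2 called 290 and 272, thinning to 1000 UMIs 139 and 163 (of 2030 genes tested), leaving out cells with markers of other types 311 and 323, and cells with no haemoglobin UMI, added after seeing the data, 233 and 228. The other Ocm thresholds, scalings and depth limits stayed within 1.5 times. Without the filter on low counts 493 and 795 genes were called among 17897, moving the share of higher calls from 47.5% to 38.3%.

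Without the replicate block, the comparison with Ocm-0 HCs called 307 and 301 genes, all of them among the blocked calls, and that with Sox2-positive HCs 289 and 325. Leaving out each library in turn gave 340 to 519 higher and 377 to 543 lower genes, with the lowest counts without replicate 3. Against Sox2-positive HCs, with 360 and 396 calls, DESeq2 called 178 and 207, no filter on low counts 544 and 596, thinning 84 and 53 (61.3% higher, from 47.6%), and leaving out cells with markers of other types 172 and 181. Leaving out each library in turn gave 233 to 362 and 242 to 415, with the fewest higher calls without replicate 3 and then replicate 5.

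The share of Ocm-high HCs was 11.6% with at least 6 Ocm UMIs and 11.98% with cells under 10% mitochondrial UMIs, against 13.7% reported, and 13.3% to 14.0% with each library left out. Fewer UMIs or cells were counted by construction under thinning and the cell limits. The other causes were not tested.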

Other observations

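Several of the genes highest in Ocm-high HCs lie near each other in the genome, some with genes between them that were not called. This was seen after their values were known and is given without a test. Within 500 kb of Paqr9 on chromosome 9, 8 genes were tested and 5, with Paqr9 itself, were called higher in Ocm-high than in Ocm-0 HCs (edgeR quasi-likelihood test, Benjamini-Hochberg), beside 7.87% of all genes tested. As the windows were centred on genes chosen for their fold, nothing is read from these counts. They were Slc9a9 (log2 fold change 0.95, adjusted p = 0.0296, a call lost in 5 of 14 alternatives), Chst2 (chr9:95399292-95406722), Paqr9 (chr9:95559657-95568023), Pcolce2 (chr9:95637601-95698096) and Trpc1 (chr9:95705082-95750375), which encodes a cation channel and gave 63 UMIs against 20 (log2 fold change 4.06, adjusted p = 6.03e-12). Between and beside them, U2surp, Pls1 and Xrn1 had log2 fold changes of 0.34, 0.01 and 0.28 and were not called.

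Within 500 kb of Ptgs2 on chromosome 1, Ptgs2os (chr1:150074873-150099963), Ptgs2 (chr1:150100031-150108227) and Hmcn1 (chr1:150562524-150993435) were called higher, and the intervening Odr4 and Tpr, at log2 -0.06 and 0.02, were not. On chromosome 3, S100a1 (chr3:90511034-90514392), S100a13 (chr3:90514435-90524581) and S100a6 (chr3:90612882-90624181) were called lower in Ocm-high HCs, as was the ribosomal protein gene Rps27, beside 8.71% of all genes tested, and 7 other genes tested within 500 kb of S100a6 were not called. All positions are on GRCm38.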
